A study of Mus musculus with 6 samples.

Results

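Skin homing chemokines and their receptors were followed in challenged ear skin of mice that carried or lacked a transgene for removing plasmacytoid dendritic cells. The set has 7 genes: the ligands Ccl17, Ccl22, Ccl1 and Ccl27a, and the receptors Ccr4, Ccr8 and Ccr10. A gene was measured where the array annotation lists a probe set for that symbol alone, and the brightest such probe set over the 6 arrays would be taken where there are several. Each of 6 of the 7 genes had exactly 1 such probe set, among 19938 genes measured in this way. The exception was Ccl27a, whose 3 probe sets are each listed with 5 gene symbols, so that no value is given for it as a gene.

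Expression was measured by array in 3 CLEC4C-DTR mice (genotype CLEC4C-DTR/+) and in 3 littermate control mice, with 1 mouse and 1 ear pinna per array. In the transgene, CLEC4C sequences, from a gene that marks plasmacytoid dendritic cells in humans, drive the receptor for diphtheria toxin, and toxin can kill cells that carry this receptor. Mice of both groups were 10 to 12 weeks old and were injected with 200 ng of diphtheria toxin on days -1, 1, 3 and 5. Both groups had 0.5% FITC (fluorescein isothiocyanate, a contact sensitiser), dissolved in acetone and dibutyl phthalate, first as 100 µL on shaved abdominal skin (days 0 and 2) and then as 20 µL on the right ear (day 6). The sources used here give no strain, sex or time from challenge to collection, and no unchallenged ear was analysed. Effects of the toxin-treated genotype in the ear, on sensitisation and elsewhere can therefore not be told apart. Values are the authors' log2 values from RMA (robust multi-array average), which sets all arrays to nearly one distribution. With 3 arrays in each group, precision is limited by their number.

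Chemokines are small secreted proteins that draw leukocytes by binding G protein-coupled receptors. Ccl17 and Ccl22 bind Ccr4, a receptor of skin-homing T cells. Ccl17 is made by dendritic cells, keratinocytes and endothelium, and Ccl22 mainly by dendritic cells and macrophages. Ccl1, a product of activated T cells and mast cells, binds Ccr8, which is found on regulatory T cells, type 2 helper T cells and T cells resident in skin, and in mice Ccl8 binds Ccr8 as well. Ccl27a is made by keratinocytes and binds Ccr10, which also binds Ccl28, a chemokine of mucosal epithelia.

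Promoters are shown for the neighbouring Ccr4 ligands, whose values are set against each other below, and for Ccr8, the receptor that changed. Each runs from 250 bases before to 50 bases after a transcription start of RefSeq (GRCm38.p6) on the plus strand. They lie at chr8:94745434-94745733 (Ccl22), chr8:94810203-94810502 (Ccl17) and chr9:120091883-120092182 (Ccr8). Capitals mark matches, on either strand, to an NF-kB motif (GGGA or GGGG, then 4 bases of any kind, then CC) and to STAT motifs (TTC and GAA with 3 or 4 bases of any kind between them).
Ccl22: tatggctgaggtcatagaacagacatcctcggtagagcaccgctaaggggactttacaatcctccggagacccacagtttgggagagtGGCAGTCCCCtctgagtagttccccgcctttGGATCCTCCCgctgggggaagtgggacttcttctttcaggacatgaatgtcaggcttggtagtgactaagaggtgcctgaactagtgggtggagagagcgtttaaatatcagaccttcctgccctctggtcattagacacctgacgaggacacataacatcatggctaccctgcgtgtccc
Ccl17: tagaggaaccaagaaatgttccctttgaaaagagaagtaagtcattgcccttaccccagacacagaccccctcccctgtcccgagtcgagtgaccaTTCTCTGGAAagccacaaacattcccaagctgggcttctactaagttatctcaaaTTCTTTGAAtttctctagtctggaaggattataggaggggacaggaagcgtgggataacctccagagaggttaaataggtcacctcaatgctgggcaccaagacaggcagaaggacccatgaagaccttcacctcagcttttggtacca
Ccr8: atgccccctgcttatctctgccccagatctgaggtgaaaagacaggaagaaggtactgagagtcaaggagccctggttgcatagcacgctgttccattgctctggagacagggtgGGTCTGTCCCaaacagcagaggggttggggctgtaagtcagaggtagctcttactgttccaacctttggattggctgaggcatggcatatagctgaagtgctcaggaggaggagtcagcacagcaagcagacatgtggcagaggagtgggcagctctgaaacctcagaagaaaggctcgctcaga
The Ccl22 window held 2 NF-kB matches, which begin 162 and 131 bases before the start, and no STAT match. The Ccl17 window held a match to each STAT motif, with a gap of 4 bases at 154 bases and with a gap of 3 at 99 bases before the start, and none to the NF-kB motif. The Ccr8 window held 1 NF-kB match, 135 bases before the start. Among all 32851 promoters of the table, 32.5% hold the NF-kB motif, 8.3% the STAT motif with a gap of 3 and 6.95% that with a gap of 4. A match describes letters only and was not set against binding.

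Of the 6 measured genes, 1 rose in CLEC4C-DTR skin, the receptor Ccr8, and 5 did not pass the test (limma, Benjamini-Hochberg over all genes, adjusted p of 0.05). Over all genes 9.32% passed, 5.01% higher and 4.31% lower, and 1 call among 6 genes is close to that share. The groups did not overlap for 1 of the 6 genes, again Ccr8, against 33.0% of all genes. Ccl22 had an unadjusted p under 0.05 in limma as well, and no other member beside Ccr8 did. Such values were common, with 5455 of 19938 genes under 0.05 (limma, unadjusted) when the probe sets of a gene were averaged. In whole skin, more or fewer cells of a type and more or less RNA per cell cannot be told apart.

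**Figure D1:**
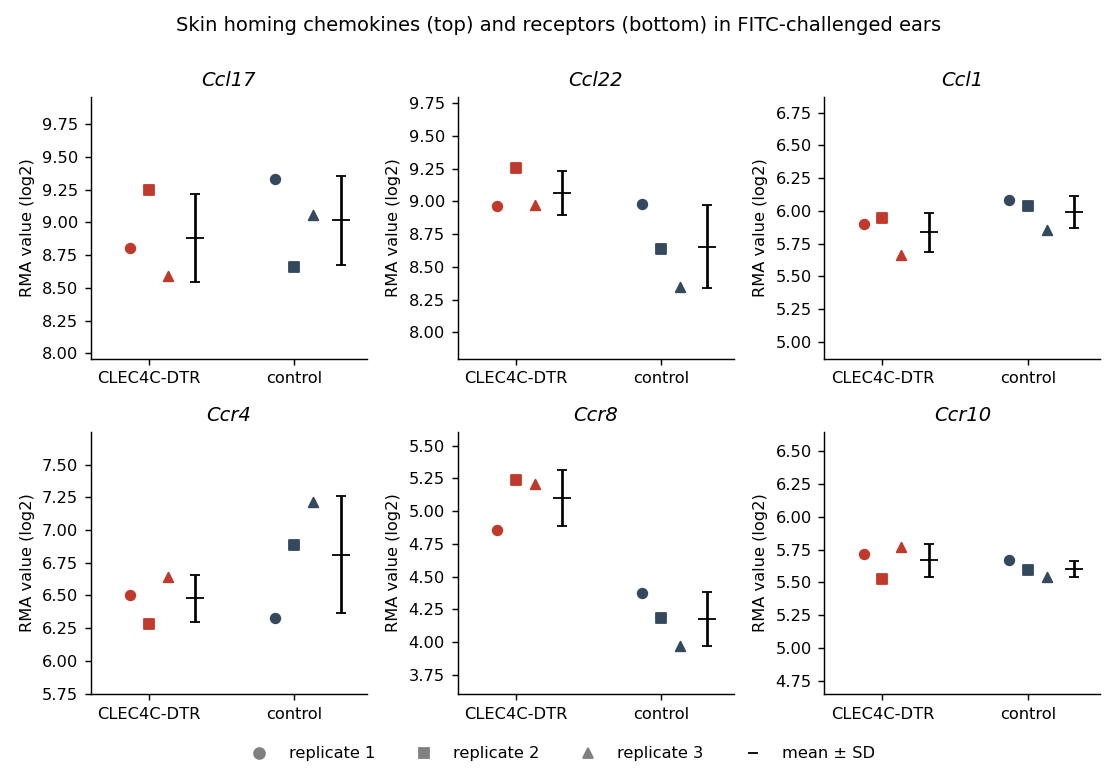
RMA values (log2) of the 3 measured ligands (top) and 3 receptors (bottom) on each of the 6 arrays, with CLEC4C-DTR left of littermate control; symbols mark the replicate, and bars give the mean ± SD of 3 mice. Each panel spans 2 log2 units. Only in the Ccr8 panel do all 3 CLEC4C-DTR values (4.85 to 5.24) lie above all 3 control values (3.97 to 4.37).

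Ccl17, a Ccr4 ligand of dendritic cells, had log2 values of 8.81, 9.25 and 8.59 in CLEC4C-DTR mice and 9.33, 8.66 and 9.06 in controls. The 2 groups lay within each other. The means were 8.88 ± 0.33 in CLEC4C-DTR skin and 9.02 ± 0.34 in control skin (SD, n = 3 each), a log2 difference of -0.13 (SE 0.21, 95% interval -0.61 to 0.34, adjusted p = 0.723). The interval leaves room for a change in either direction, and the sign turned when CLEC4C-DTR replicate 3 (0.011) or control replicate 1 (0.024) was left out.

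Ccl22, the other ligand of Ccr4, had log2 values of 8.96, 9.25 and 8.97 in CLEC4C-DTR mice and 8.98, 8.64 and 8.35 in controls. Control replicate 1 lay just above 2 of the CLEC4C-DTR values, and the other control values lay below them all. The means were 9.06 ± 0.17 in CLEC4C-DTR skin and 8.65 ± 0.32 in control skin (SD, n = 3 each), a log2 difference of 0.41 (SE 0.16, 95% interval 0.03 to 0.78, adjusted p = 0.152 in limma). Ccl22 did not pass over all genes, and its adjusted p lay between 0.0837 and 0.394 under 17 alternatives.

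Ccl17 and Ccl22 share a receptor, and they were set against each other on the same array. The log2 value of Ccl22 minus that of Ccl17 was 0.16, 0.01 and 0.38 in CLEC4C-DTR mice and -0.35, -0.02 and -0.71 in controls. The difference of these differences was 0.54, and the groups did not overlap, although CLEC4C-DTR replicate 2 and control replicate 2 were nearly level. An exact two-sided permutation test gave p = 0.1, the smallest that 3 against 3 arrays can give, and 0.1 after adjustment over 4 such pairs. The level of 1 probe set against another has no meaning on these arrays, so only the change between groups is read.

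Ccl1, a ligand of Ccr8, had log2 values of 5.90, 5.94 and 5.66 in CLEC4C-DTR mice and 6.08, 6.04 and 5.85 in controls. Its groups overlapped through CLEC4C-DTR replicates 1 and 2, which lay above the lowest control. The log2 difference was -0.15 (SE 0.11, 95% interval -0.40 to 0.09, adjusted p = 0.401). Its mean level stood at percentile 38.2 of all genes.

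Ccr4, the receptor of Ccl17 and Ccl22, had log2 values of 6.51, 6.28 and 6.64 in CLEC4C-DTR mice and 6.33, 6.89 and 7.21 in controls. Controls spread widely, with replicate 1 among the CLEC4C-DTR values and replicates 2 and 3 above them. The log2 difference was -0.33 (SE 0.21, 95% interval -0.82 to 0.15, adjusted p = 0.351).

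Ccr8 had log2 values of 4.85, 5.24 and 5.21 in CLEC4C-DTR mice and 4.37, 4.19 and 3.97 in controls. Every CLEC4C-DTR value lay above every control value. The means were 5.10 ± 0.21 in CLEC4C-DTR skin and 4.18 ± 0.20 in control skin (SD, n = 3 each), and Ccr8 rose by 0.92 on the log2 scale (SE 0.14, 95% interval 0.60 to 1.25, adjusted p = 0.0148). The measured difference stayed short of the 2-fold change that the study's design text also asks for, a rule that 2.05% of all genes met. Ccr8 was dim, at percentile 16.9 of mean level. The liver genes Alb and Ttr, which ear skin should not express, read 4.53 to 5.19 on the same arrays. The control values of Ccr8 lay below theirs, and its CLEC4C-DTR values lay about level with theirs. Apoa2, the other liver gene listed, read higher, at 6.59 to 7.53. Background differs between probe sets and the table holds no measure of it, so it was not tested whether Ccr8 was above background in either group, and no fold is given. The call was lost with CLEC4C-DTR replicate 3 left out (log2 0.87, adjusted p = 0.0617) and with littermate control replicate 3 left out (log2 0.82, adjusted p = 0.0723).

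Ccr10, the receptor of Ccl27a and Ccl28, had log2 values of 5.71, 5.53 and 5.77 in CLEC4C-DTR mice and 5.67, 5.60 and 5.54 in controls. All 6 values lay close together, and the groups overlapped. The log2 difference was 0.07 (SE 0.09, 95% interval -0.14 to 0.28, adjusted p = 0.688), the narrowest interval among the 6 genes.

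**Figure D2:**
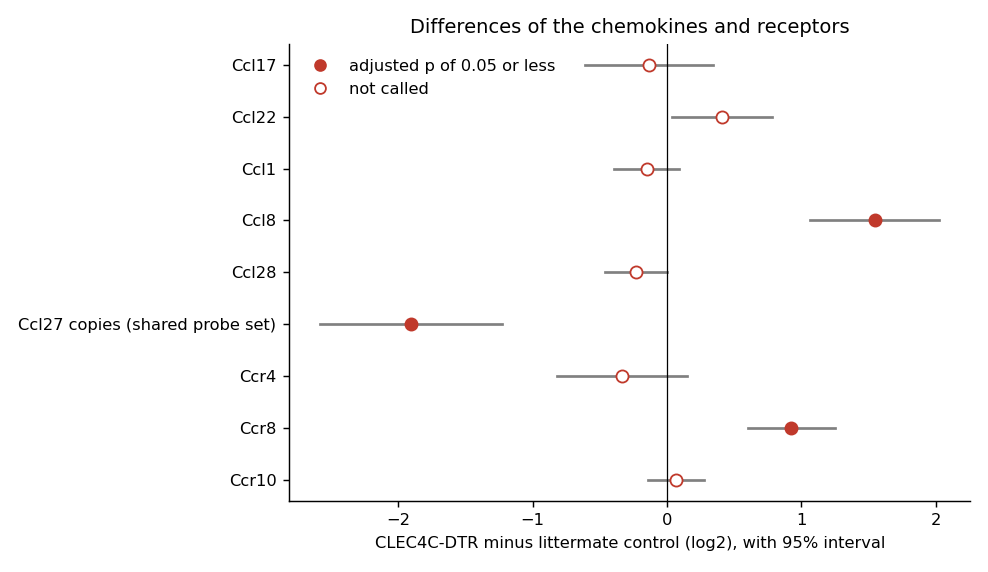
Log2 differences (CLEC4C-DTR minus littermate control) with 95% intervals from limma, for the members, the other ligands Ccl8 and Ccl28, and the probe set shared by the Ccl27 copies, which comes from a fit over every listed probe set. Filled points passed an adjusted p of 0.05: Ccl8 (1.55), Ccr8 (0.92) and the shared probe set (-1.91).

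Receptors and ligands were also set against each other within arrays, where an exact permutation test of 3 against 3 arrays cannot go below p = 0.1. Ccr8 minus Ccr4 on the same array was -1.65, -1.04 and -1.44 in CLEC4C-DTR mice and -1.96, -2.70 and -3.25 in controls, a pair chosen after its values were seen. The groups did not overlap, the difference between them was 1.26, and the exact two-sided permutation test gave p = 0.1, the smallest possible. Ccl1 minus Ccr8 was 1.04, 0.70 and 0.46 in CLEC4C-DTR mice and 1.71, 1.85 and 1.88 in controls, a difference of -1.08 (exact permutation p = 0.1). These groups did not overlap either, with every CLEC4C-DTR value below every control value. Most of this difference is that of Ccr8 itself (0.92, against -0.15 for Ccl1), so the pair adds little to the result for Ccr8.

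The other mouse ligand of Ccr8, Ccl8, rose. Its log2 values were 9.13, 9.07 and 9.77 in CLEC4C-DTR mice and 7.45, 7.99 and 7.88 in controls, with no overlap. The rise was 1.55 on the log2 scale (SE 0.21, adjusted p = 0.0123), and the call was lost without littermate control replicate 3 (log2 1.60, adjusted p = 0.0564), over all probe sets (adjusted p = 0.0560) and without moderation of variances (adjusted p = 0.146). Ccl8 minus Ccl1, also chosen after the values were seen, was 3.23, 3.12 and 4.10 in CLEC4C-DTR mice and 1.37, 1.96 and 2.03 in controls, a difference of 1.70 (exact permutation p = 0.1). Ccl28, the second ligand of Ccr10, differed by -0.23 (SE 0.10, adjusted p = 0.185). Ccl27b was not analysed as a gene, since it shares the probe sets of Ccl27a.

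**Figure D3:**
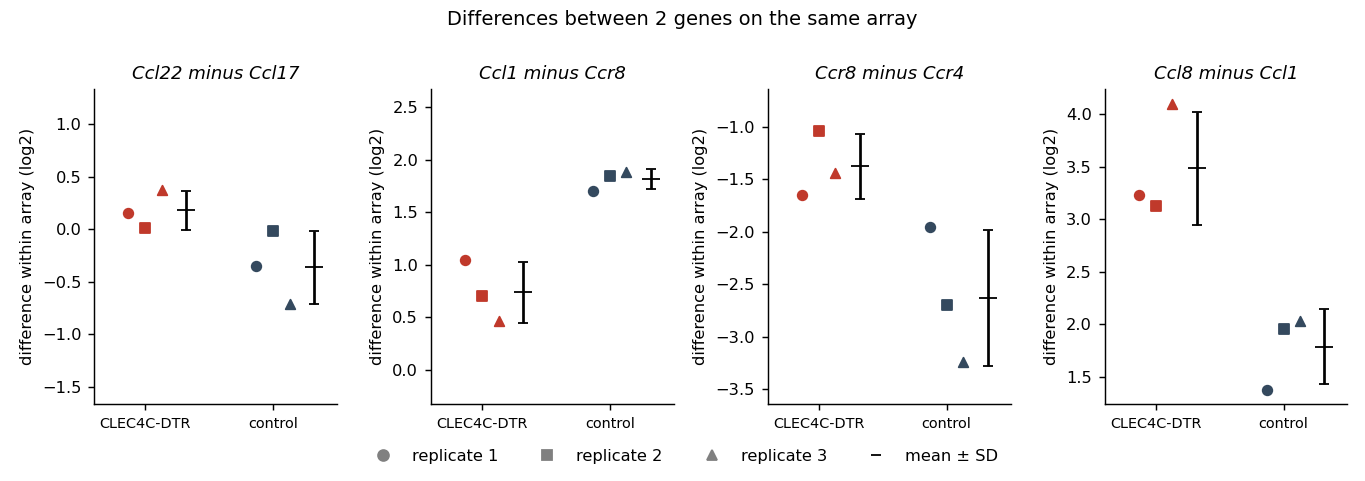
Differences between 2 genes on the same array (log2) for 4 pairs, with CLEC4C-DTR left of littermate control; symbols mark the replicate, and bars give the mean ± SD of 3 mice. The groups do not overlap in any of the 4 pairs, and the smallest gap is that of Ccl22 minus Ccl17 (0.01 against -0.02). Ccr8 minus Ccr4 and Ccl8 minus Ccl1 were chosen after their values were seen, so their separation is no test. Ccl1 minus Ccr8 mostly repeats the difference of Ccr8. How often other pairs separate was not tested.

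Probe sets listed with Ccl27a were lower in CLEC4C-DTR skin. There are 3, each listed with Ccl27a, Ccl27b and 3 further symbols, and they cannot say which gene was read. Probe set 10504164 had log2 values of 9.66, 8.31 and 8.82 in CLEC4C-DTR mice and 10.86, 10.85 and 10.80 in controls. The controls were nearly identical, and all 3 CLEC4C-DTR mice lay below them, with replicate 1 the least so. The means were 8.93 ± 0.68 in CLEC4C-DTR skin and 10.84 ± 0.03 in control skin (SD, n = 3 each), 3.75-fold lower (log2 -1.91, SE 0.29, adjusted p = 0.0185 in limma over 23410 listed probe sets, of which 8.84% passed and 4.15% passed as lower). Probe set 10504194 held identical values and adds nothing. Probe set 10512315 had log2 values of 8.50, 7.42 and 7.61 in CLEC4C-DTR mice and 9.50, 9.44 and 9.44 in controls, 3.05-fold lower (log2 -1.61, SE 0.25, adjusted p = 0.0189). Probe set 10504164 no longer passed after removal of CLEC4C-DTR replicate 3 (adjusted p = 0.0675), control replicate 1 (adjusted p = 0.0683) or littermate control replicate 3 (adjusted p = 0.0819), or when unlisted probe sets were tested too (adjusted p = 0.0598). Its log2 difference was -2.27 to -1.60 with 1 array left out.

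**Figure D4:**
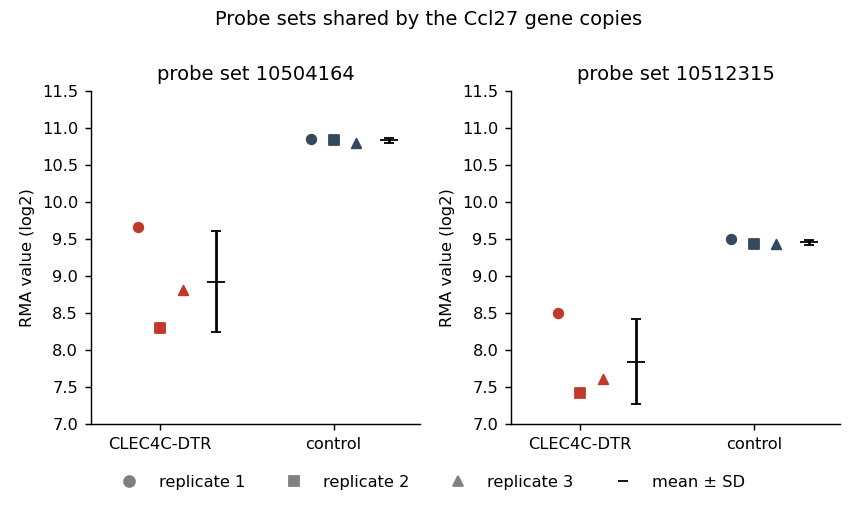
RMA values (log2) of 2 probe sets listed with Ccl27a and 4 further symbols, on each of the 6 arrays, with CLEC4C-DTR left of littermate control; symbols mark the replicate, and bars give the mean ± SD of 3 mice. Controls lie within 10.80 to 10.86 (left) and 9.44 to 9.50 (right), above every CLEC4C-DTR value (at most 9.66 and 8.50).

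Keratinocyte markers bear on the probe sets of the Ccl27 copies, since keratinocytes make this chemokine. Of 8 basal keratinocyte genes, 1 fell (Krt15, by 1.59 on the log2 scale) and none rose, against 4.31% and 5.01% of all genes. Of the 8 genes, 7 had lower values. The count that fell was 4 without CLEC4C-DTR replicate 1 and 0 without CLEC4C-DTR replicate 3, control replicate 1 or control replicate 3. Their summed linear values were 12016 to 14024 in CLEC4C-DTR mice and 15388 to 16213 in controls, and the 2 ranges did not overlap. Krt14, a keratin of basal cells, differed by 0.02 (adjusted p = 0.884). Of 6 measured differentiated keratinocyte genes none passed in limma (0 calls, 1 with unadjusted p under 0.05), and their sums overlapped at 6961 to 11498 in CLEC4C-DTR mice and 9649 to 10935 in controls. All 6 activated keratinocyte genes rose, with sums of 11952 to 18084 in CLEC4C-DTR mice and 3242 to 5081 in controls, and 4 to 6 rose with 1 array left out. The part of these cells in the lower probe sets was not tested.

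T cell markers are set beside Ccr8, a receptor of T cells. Of 10 T cell genes measured, each was above its control mean in CLEC4C-DTR skin, and 1, the adhesion molecule Cd2, rose (log2 1.18, adjusted p = 0.0102), close to the 9.32% of all genes that passed, with 8 at an unadjusted p under 0.05. The count was 4 without CLEC4C-DTR replicate 1 and 0 without littermate control replicate 3. Their summed linear values were 1375 to 1656 in CLEC4C-DTR mice and 976 to 1139 in controls. The regulatory T cell list, with 8 genes, held 4 that rose and 1 that fell, against 5.01% and 4.31% of all genes. The inhibitory receptor Ctla4 rose by 1.75, the IL-2 receptor chain Il2ra by 1.28, the cytokine Il10 by 1.26 and the lineage transcription factor Foxp3 by 0.39, while the transcription factor Ikzf2 fell by 0.53 on the log2 scale. Il10 was dim, at percentile 22.8 of mean level. Its control values (4.41 to 4.46) lay below those of the liver genes Alb and Ttr (4.53 to 5.19). Sums over the 8 regulatory T cell genes were 1155 to 1478 in CLEC4C-DTR mice and 936 to 1071 in controls. With 1 array left out, 0 to 4 regulatory T cell genes rose, and none did when either CLEC4C-DTR replicate 3 or control replicate 3 was removed. Of 6 measured genes of type 2 helper T and innate lymphoid cells, none rose and 2 fell, while 2 had higher and 4 lower values. Those that fell were the eosinophil growth factor Il5, dim at percentile 19.4 of mean level, and the IL-25 receptor Il17rb. Il13, also of this list, had higher values in every CLEC4C-DTR mouse than in any control (log2 0.55, adjusted p = 0.0583). With any array but CLEC4C-DTR replicate 1 left out none fell, and 1 rose without control replicate 2. The part of T cell number in the rise of Ccr8 was not tested.

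Dendritic cell markers, set beside Ccl17 and Ccl22, split. Of 12 conventional dendritic cell genes, 6 rose and none fell, against 5.01% and 4.31% of all genes. The smallest p was that of Fscn1, which bundles actin in mature dendritic cells (log2 0.98, adjusted p = 0.00937). The highest rise was that of the lectin gene Clec9a (log2 1.60, adjusted p = 0.0415), and Ccr7, Cd86, Itgax and Clec10a also rose. The control values of Clec9a (4.48 to 5.21) lay about level with those of the liver genes Alb and Ttr (4.53 to 5.19). The 6 that did not pass were Mgl2 (0.86), Cd83 (0.43), Flt3 (0.23), Cd209a (0.01), Zbtb46 (-0.03) and Xcr1 (-0.04). Sums over the 12 genes were 1500 to 1759 in CLEC4C-DTR mice and 934 to 1111 in controls. The count that rose was 5 without CLEC4C-DTR replicate 1 and 1 without any other single array. Of 3 Langerhans cell genes none passed in limma (0 calls, 0 with unadjusted p under 0.05). Cd207, the langerin gene and a marker of these cells, differed by -0.36 (adjusted p = 0.306). Of 9 measured monocyte and macrophage genes 7 rose and none fell, and 1 to 7 rose with 1 array left out. Adgre1 (0.36) and Lyz2 (-0.21) did not pass, and Lyz2 was lower in every CLEC4C-DTR mouse than in any control. Sums over the 9 genes were 6995 to 8233 in CLEC4C-DTR mice and 4511 to 5634 in controls. The part of these cells in the values of Ccl17 and Ccl22 was not tested.

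**Figure D5:**
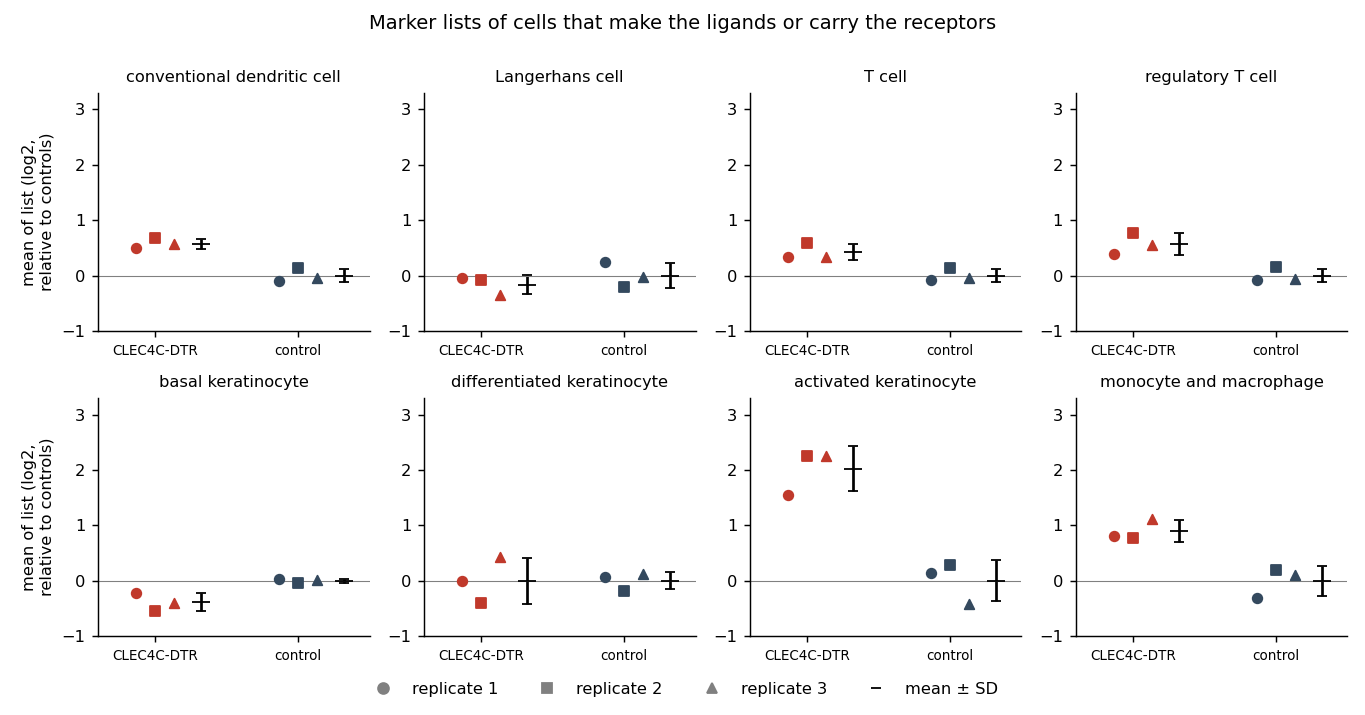
Mean log2 value of 8 marker lists on each array, after each gene's control mean was subtracted, with CLEC4C-DTR left of littermate control; symbols mark the replicate, and bars give the mean ± SD of 3 mice. CLEC4C-DTR values lie above controls for T cell (0.33 to 0.58), regulatory T cell (0.39 to 0.78), conventional dendritic cell (0.49 to 0.67), activated keratinocyte (1.55 to 2.26) and macrophage lists (0.76 to 1.12), and below them for basal keratinocytes (-0.54 to -0.21).

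Genes that induce Ccl17 and Ccl22 were higher in part. Among 18 measured genes 6 rose and none fell, against 5.01% and 4.31% of all genes, and 12 did not pass. Their median log2 difference was 0.27, against -0.04 over all genes. The IL-4 and IL-13 receptor chain Il4ra rose by 1.26, the growth factor Csf2 by 0.82 and its receptor chains Csf2ra and Csf2rb by 0.75 and 1.43 on the log2 scale. The cytokines Tnf and Il1b rose by 1.33 and 2.43. Of the 12 that did not pass, 4 had the smallest p. The cytokine Il13 (log2 0.55, adjusted p = 0.0583), the NF-kB subunit gene Nfkb2 (log2 0.37, adjusted p = 0.0759) and Stat6, which carries IL-4 and IL-13 signals (log2 0.25, adjusted p = 0.109), had higher values in every CLEC4C-DTR mouse than in any control. Irf4, a transcription factor of dendritic cells, had lower ones (log2 -0.23, adjusted p = 0.131). Tslp, the keratinocyte cytokine that makes dendritic cells secrete Ccl17, differed by 0.07 (adjusted p = 0.881) and Il4 by -0.08 (adjusted p = 0.709), both picked with their values known. None of the 18 rose where CLEC4C-DTR replicate 3, control replicate 1 or control replicate 3 was left out. In the same skin 6 of 6 neutrophil and 7 of 9 macrophage markers rose, and the part of cell number in these rises was not tested.

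Of 17 measured genes of skin homing adhesion, 5 rose and none fell, against 5.01% and 4.31% of all genes. Their median log2 difference was 0.21. Selplg, the P-selectin ligand that carries the skin homing glycan, rose by 1.55, and the glycan enzymes Gcnt1 and St3gal4 rose by 0.83 and 0.55. The integrin chains Itgal and Itgb2, which together form LFA-1, rose by 1.05 and 1.10. Of the uncalled genes, Itgae (0.18), Icam2 (0.21), Cd44 (0.31) and Itga4 (0.34) had the smallest p. Fut7, the fucosyltransferase that makes the skin homing glycan, differed by 0.07 (adjusted p = 0.654), and Sele, the endothelial selectin that binds it, by 0.11 (adjusted p = 0.743) (both picked with their values known). These integrin chains and Selplg are also carried by neutrophils, whose 6 markers all rose (2 to 6 rose with 1 array left out). Sums of these markers were 18331 to 27554 in CLEC4C-DTR mice and 6605 to 7878 in controls. S100a8 and S100a9, the brightest of the 6 (mean log2 13.10 and 13.29 in CLEC4C-DTR skin), made up most of these sums. The part of neutrophils was not tested. No adhesion gene rose where CLEC4C-DTR replicate 3, control replicate 1 or control replicate 3 was left out.

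Of 13 other measured chemokine receptors, 4 rose and 1 fell, against 5.01% and 4.31% of all genes. Cxcr2, the neutrophil receptor, rose by 2.21, Ccr1 of myeloid cells by 2.02, Cxcr4 by 1.31 and Ccr7, which guides dendritic cells to lymph nodes, by 0.69 on the log2 scale. Cx3cr1 fell by 0.61 (adjusted p = 0.0242), and no receptor of the list fell when any array but CLEC4C-DTR replicate 1 was left out. Of the uncalled receptors, Ccr2 (0.24), Cxcr6 (0.44), Ccr3 (0.26) and Ccr9 (-0.26) had the smallest p. Of 10 genes that carry chemokine receptor signals inside leukocytes, 8 rose and none fell, among them the Rac activator Dock2 (log2 0.93), the GTPase Rac2 (log2 1.67), the arrestin Arrb2 (log2 1.05) and the kinase gene Pik3cg (log2 0.70). The other 4 were Pik3r5, Rgs2, Coro1a and Was, with rises of 0.50 to 1.32, while Gnai2 (0.31, adjusted p = 0.0531) and Rgs1 (0.40, adjusted p = 0.442) did not pass. Neutrophils and macrophages also use these genes, and 6 of 6 neutrophil and 7 of 9 macrophage markers rose with them. The part of cell number was not tested. Without control replicate 3 no gene of either list rose, and without CLEC4C-DTR replicate 3 or control replicate 1 no other receptor and 1 or 2 signalling genes did. Of 5 genes that scavenge or cleave chemokines none passed in limma (0 calls, 2 with unadjusted p under 0.05). Those 2 were the scavenging receptor Ackr4 (log2 -0.71, adjusted p = 0.0526) and Ccrl2, which binds chemerin (log2 1.48, adjusted p = 0.0689). Ackr1, which binds chemokines on venules, differed by -0.25 (adjusted p = 0.207), Ackr2, a scavenger of Ccl17 and Ccl22, by 0.18 (adjusted p = 0.325), and Dpp4, the peptidase that trims Ccl22, by 0.35 (adjusted p = 0.244).

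Neighbouring genes mostly did not pass. The 2 nearest protein-coding genes on each side of the 6 measured members include 21 that are not members. Of these 1 rose (Ccl8, beside Ccl1), 2 fell and 18 did not pass, while 9.32% of all genes passed. Ccl22 and Ccl17 lie on chromosome 8 with Cx3cl1, the ligand of Cx3cr1, between them, and Cx3cl1 differed by -0.25 (adjusted p = 0.187). Cx3cr1 is the nearest gene on one side of Ccr8 on chromosome 9. All the neighbours of Ccr10 had lower values. Ezh1, a histone methyltransferase, fell by 0.39 (adjusted p = 0.0442), while Tubg2 (-0.18), Plekhh3 (-0.38) and Cntnap1 (-0.40) did not pass. A common shift around Ccr10 was not tested.

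The genes whose profile was most like that of Ccr8 over the 6 arrays were Fosl1, Slc9a3r1 and AI506816. Likeness was the root mean square difference between log2 values after each gene's own mean was subtracted, which was 0.0537 for Fosl1, 0.0636 for Slc9a3r1 and 0.0689 for AI506816. Fosl1, a subunit of the AP-1 transcription factor, had log2 values of 7.41, 7.91 and 7.90 in CLEC4C-DTR mice and 7.01, 6.74 and 6.56 in controls. It shares with Ccr8 the order of the controls, with replicate 1 highest and replicate 3 lowest. With 6 arrays and 19938 genes, some close profiles are found for any gene.

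Skin genes were bright on every array. The keratins Krt5, Krt14 and Krt10 lay at 11.92 to 12.85 on all 6 arrays, and genes of ear muscle (Acta1, 9.89 to 10.91) were also read. The liver genes Alb and Ttr lay at 4.53 to 5.19, and Apoa2, also a liver gene, at 6.59 to 7.53. Siglech, which marks plasmacytoid dendritic cells in mice, had log2 values of 5.42, 5.52 and 5.47 in CLEC4C-DTR mice and 5.68, 5.41 and 5.83 in controls, which overlap (adjusted p = 0.378). Expression of the transgene was not analysed here, so the arrays themselves do not show how far the cells were removed.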

How the data were processed

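Gene expression in ear skin of 3 CLEC4C-DTR and 3 littermate control mice was measured on Affymetrix Mouse Gene 1.0 ST arrays. Per the series' design text, the authors used RMA; the deposited values (1.60 to 13.9) are on a log2 scale. Array medians were 6.17 to 6.23, no arrays were identical, and array pairs correlated at 0.970 to 0.991. The RMA software is unnamed in these sources. A build, mm8, appears without its role in the submitters' processing notes.

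Of 35556 probe sets, 21789 have 1 symbol in the platform annotation, 1621 several and 12146 none. Symbols were updated through Entrez identifiers for 21698. The brightest single-symbol probe set per gene gave 19938 genes, with no filter on level. Groups were compared with limma 3.58.1 (R 4.3.3), two-sided, without covariates, at a Benjamini-Hochberg adjusted p of 0.05 over all genes. Single values were compared by exact permutation over the arrays. The fit was tested on simulated data. Members and lists were chosen with earlier results of these data known. Named genes were the members, called list members up to 4 others with the smallest p per pathway list, genes most like a called member, and neighbours from RefSeq (GRCm38.p6). Tslp, Il4, Fut7, Sele, Ackr2, Krt14, Cd207, uncalled dendritic cell, macrophage and fibroblast genes, and genes of the tissue check were named outside this rule. The values of these genes were known when they were named. Of the 7 members, 6 matched a RefSeq promoter. Replicates are separate animals. Alternatives were other scalings, filters, variance moderation, array weights, probe set rules, a replicate block and each array left out. Figures used matplotlib 3.10.9.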

Additional observations from a re-analysis of the deposited data

How the results depend on the processing

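Ccr8 rose by 0.82 to 1.05 on the log2 scale with 1 array left out (adjusted p = 0.00301 to 0.0723), and kept its direction under all 16 alternatives. At a log2 difference of 0.92 it no longer passed without moderation of variances (adjusted p = 0.149, where limma called 0 genes and 4387 had an unadjusted p under 0.05) or when unlisted probe sets were tested too (adjusted p = 0.0587, with 95 of 35556 called). The cause was not tested. The number of members called was 0 to 1 with 1 array left out, and 0 without moderation, over all probe sets, with the 2-fold rule added, and among genes above the median level, where Ccr8, Ccl1 and Ccr10 were not tested. Ccl17 ranged from -0.32 to 0.024 with 1 array left out and turned positive when CLEC4C-DTR replicate 3 (0.011) or control replicate 1 (0.024) was left out. No other member changed direction or passed under any alternative. Genes called over all genes numbered 1858, and 67 to 2617 with 1 array left out.

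In the labels same-numbered arrays share only a number, and whether they share more was not tested. Correlations of their deviations from the group means were -0.06, 0.22 and 0.10 for replicates 1, 2 and 3. The value for replicate 2 was the highest of any pair, while CLEC4C-DTR replicate 1 correlated best with control replicate 3 (0.18). With the replicate block, Ccr8 stayed at 0.92 (adjusted p = 0.0157) and 2084 genes were called. The 4 within-array differences kept their direction, and their sign-flip test over 3 pairs cannot go below 0.25. The planned comparison of Ccl27a with Ccr10 was not run, since Ccl27a has no probe set of its own. For dim genes such as Ccr8 no measure of background was at hand.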

Other observations

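Markers of further cell types in the ear were measured as well. Over all genes 9.32% passed, 5.01% higher and 4.31% lower, and a single call in a short list is not read as a result about its cells. Counts at an unadjusted p under 0.05 stand beside 5455 of 19938 genes in limma, with the probe sets of a gene averaged. Of 8 mast cell genes, 1 rose, the histidine decarboxylase gene Hdc, and of 6 NK and cytotoxic cell genes 1 rose, Nkg7. In limma none of 6 eosinophil and basophil genes passed (0 calls, 1 with unadjusted p under 0.05). The same was true of 7 measured B and plasma cell genes (0 calls, 3 with unadjusted p under 0.05) and of 4 measured gamma delta T cell genes (0 calls, 1 with unadjusted p under 0.05). Of 10 measured plasmacytoid dendritic cell genes 7 had lower values and none passed (0 calls, 3 with unadjusted p under 0.05). The list's median log2 difference was -0.17, and that of all genes was also negative (-0.04). Which cells of the ear these genes were read from was not tested.

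Of 8 blood endothelial genes 1 rose, Pecam1, and of 5 fibroblast genes 1 rose, Pdgfra. The other 4 fibroblast genes had lower values and did not pass (Col1a2 -0.41, Lum -0.38, Col1a1 -0.26 and Dcn -0.21 on the log2 scale), and the list's median was -0.26. Of 3 cartilage genes 1 fell, Acan. In limma none passed among 4 measured lymphatic endothelial genes (0 calls, 1 with unadjusted p under 0.05), 3 skeletal muscle genes (0 calls, 2 with unadjusted p under 0.05) and 3 liver genes (0 calls, 1 with unadjusted p under 0.05, Apoa2). Each list with 1 call had 0 in the same direction when CLEC4C-DTR replicate 3, control replicate 1 or control replicate 3 was left out.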
